A study of Mus musculus with 24 samples.

Results

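Eph, ephrin, Slit, Robo and netrin genes were followed through development of the mouse retina. The members were chosen by gene family: every Eph receptor, ephrin, Slit and Robo gene, the secreted netrins Ntn1 and Ntn4, and the netrin receptors Dcc, Neo1 and Unc5a to Unc5d that the gene table names. The rule gave 37 genes of the 45594 in the table, and all 37 were among the 21858 genes that passed the filter on low counts and were tested. They comprise 9 EphA receptors, 5 EphB receptors, 5 ephrin-A ligands, 3 ephrin-B ligands, 3 Slit ligands, 4 Robo receptors, 2 netrins and 6 netrin receptors.

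Retinas came from C57/Bl6N mice with no genetic or drug treatment, in the embryo at E11, E12, E14 and E16 (days of gestation), in the week after birth at P0, P2, P4 and P6 (days after birth) and later at P10, P14, P21 and P28. Polyadenylated RNA was sequenced in strand-specific libraries, 2 for each of the 12 stages and 24 in all. The libraries of E11 and E12 were made from 100 ng of RNA and those of all later stages from 1 ug, so that the amount of RNA and the stage cannot be told apart there. The labels do not say whether the 2 libraries of a stage came from separate animals or litters, or whether retinas were pooled, so the p-values below measure the spread between these libraries, which may be technical.

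Eph receptors are tyrosine kinases of the cell surface. Their ligands, the ephrins, are tethered to the membrane by a lipid anchor in class A and by a transmembrane segment in class B, and contact between the cells sends signals into both of them. In the retinotectal system, graded EphA and ephrin-A proteins order axons along the nasal to temporal axis of the retina, and EphB and ephrin-B proteins along the dorsal to ventral axis. Slits are secreted proteins that repel growing axons through Robo receptors, and netrins attract axons through Dcc or repel them through Unc5 receptors. Netrin-1 at the optic disc is known for guiding ganglion cell axons out of the eye.

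Each library held between 24567532 and 35898879 estimated counts, and expression is given as CPM, the count relative to the library's total, scaled with edgeR's TMM factors. CPM does not account for gene length and is used below to compare 1 gene between stages. RNA was taken from whole tissue, and fewer cells of a type and less RNA per cell cannot be told apart. Markers of the labelled tissue were present: the 14 progenitor markers had a sum that ranged from 601 to 9370 CPM and was highest at E14, and the sum of 13 photoreceptor markers ranged from 18.2 CPM at E11 to 24554 at P21. Genes of neighbouring tissues were also present in the early libraries. The sum of 14 lens markers was 4049 and 40.4 CPM in the 2 libraries of E11, 294 and 4070 at E12 and 80.9 and 3119 at E14, and between 5.52 and 122 CPM from E16 onward. The sum of 11 mesenchyme markers was 321 and 250 CPM at E11 and had declined to 30.9 and 31.9 by E16, and 10 red cell markers went from 3914 and 8658 CPM to 452 and 709 between the same stages.

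All 37 genes changed across the 12 stages, by edgeR's quasi-likelihood test with a Benjamini-Hochberg adjusted p below 0.05 and a range of at least 2-fold between stage means. The same held for 77.3% of all genes tested, so the count does not set these genes apart. The largest adjusted p among them was 0.00803, for Efna1. The highest stage mean, called the peak here, fell in the embryo for 18 genes and after birth for 19. Peaks gathered before and just after birth: 9 genes peaked at E11 or E12, 9 at E14 or E16, 12 at P0 or P2, none at P4 or P6 and 7 between P10 and P21. Among all genes tested, 28.6% peaked at E11 or E12, 10.07% at E14 or E16, 12.6% at P0 or P2, 8.62% at P4 or P6 and 40.1% from P10 to P28. P2 alone was the peak of 11 of the 37 genes, or 29.7%, against 7.43% of all genes tested. For 20 of the 37, both libraries of the peak stage lay above every other library, and for 42.2% of all genes tested the same was true.

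**Figure D1:**
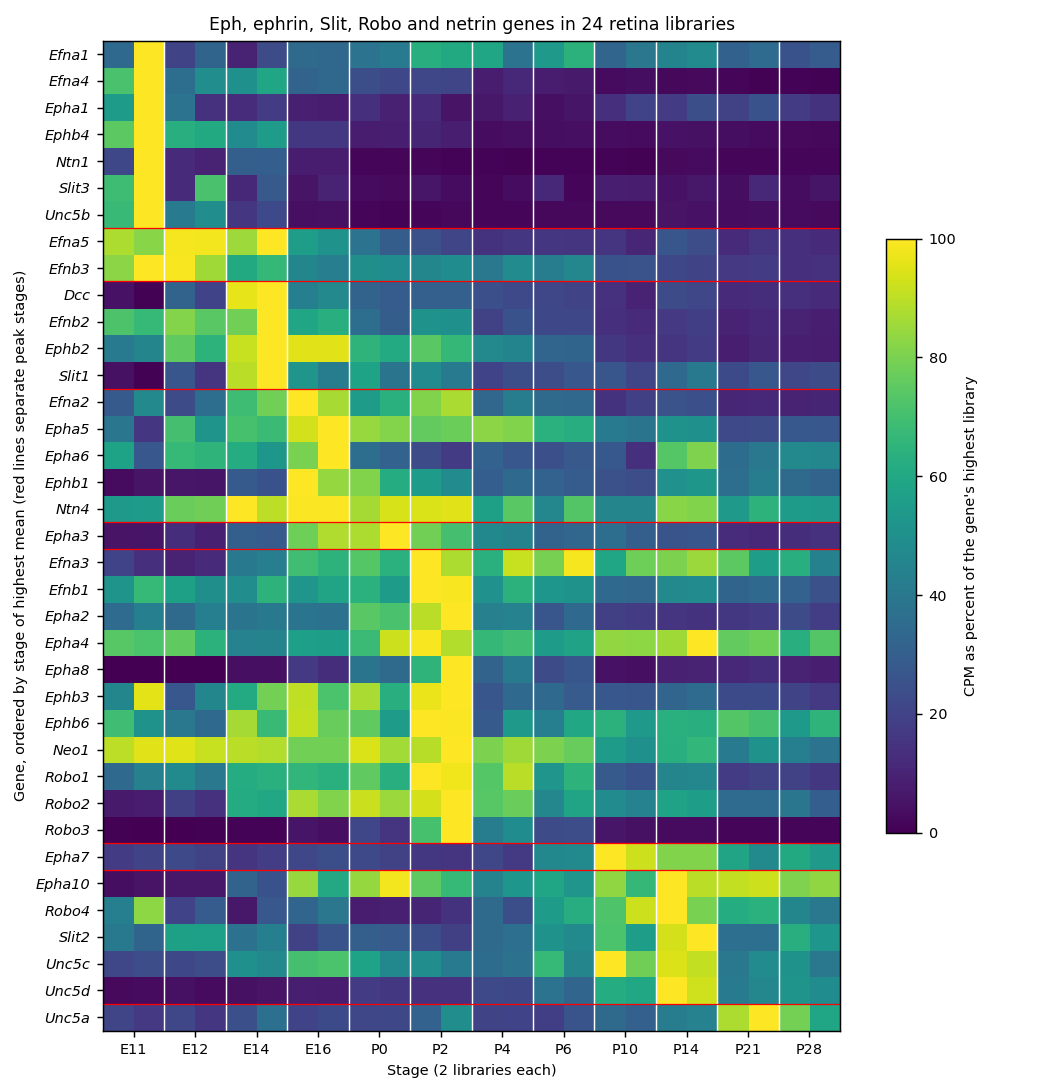
Expression of the 37 genes (rows) in 24 libraries (columns, 2 per stage), as a percent of the gene's highest library on the CPM scale; red lines separate genes by peak stage. The blocks of high values step from E11 to P21, with 11 genes at P2 and 5 at P14, and no gene peaks at P4, P6 or P28.

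Peaks at E11 and E12. The genes highest at E11 were the netrin receptor Unc5b, the receptors Ephb4 and Epha1, the ligands Efna1, Efna4 and Slit3, and netrin-1 itself (Ntn1). Unc5b, which mediates repulsion by netrin, stood at 235 and 349 CPM in the 2 E11 libraries and 145 and 172 at E12, and had dropped to 14.198 and 15.74 at E16. Its lowest mean was 3.70 CPM at P0, 78.9-fold below the peak. Ephb4, the ephrin-B2 receptor known from veins, read 80.3 and 107 CPM at E11 and 2.67 and 2.41 at P28. All E11 libraries of both genes were above all libraries of the other stages.

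Ntn1 differed widely between the 2 libraries of E11, at 11.7 and 53.9 CPM. The lower of these lay below the E14 libraries, at 16.35 and 16.19 CPM, and from P0 on no library exceeded 1.55 CPM. Efna4 fell from 19.3 and 27.1 CPM at E11 to 0.258 and 0.203 at P28, a ratio of means of 100.5. Epha1 was a low gene at every stage, with 2.07 and 3.77 CPM at E11 and a lowest mean of 0.187 CPM at P6. Slit3 was highest at E11, with 5.78 and 8.37 CPM, overlapping E12, and its lowest mean was 0.212 CPM at P4. Efna1 peaked at E11 in name only: its libraries there read 2.07 and 6.07 CPM, overlapped 8 other stages, and the lowest mean was 0.996 CPM at E14. In each of these 7 genes the second E11 library was the higher, and it was also the E11 library with more red cell RNA and less lens RNA. Mesenchyme markers were lower in it, at 250 against 321 CPM, and so were 12 pigment epithelium markers, at 181 against 234. Progenitor markers were also lower, at 5025 against 5780. So was the sum of the 16 genes listed for patterning of the retinal axes, at 2177 against 3759. Aldh1a1 alone read 1404 against 3050 CPM, so that sum does not reflect the other genes of the list. Higher in the second E11 library were endothelium markers, at 228 against 164, pericyte markers, at 183 against 162, and astrocyte markers, at 107 against 65.6. The same library was shifted toward GC-rich genes, a measure described with the P2 peaks, by 0.26 against -0.07 (log2) in the first, and 5 of the 7 genes are among the 20% richest in GC. The part of adjoining tissue, of vessels and of GC content in these values was not tested.

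Efna5 and Efnb3 peaked at E12. Efna5, a repellent ligand in the superior colliculus and also a retinal gene, was nearly level from E11 to E14, with means of 104.7 CPM at E12 and 98.6 at E14, and ended at 13.7 CPM at P28. Efnb3 read 115 and 99.5 CPM at E12, overlapped E11, and was lowest at P28 with 16.3 CPM.

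Peaks at E14 and E16. These are the stages at which the summed ganglion cell markers were highest in the embryo, at 2412 to 2862 CPM against 88.7 and 114 at E11. Dcc, the attractive netrin receptor, stood at 6.73 and 0.789 CPM at E11, 42.7 and 27.1 at E12, 130 and 135 at E14 and 58.4 and 63.6 at E16. Both E14 libraries of Dcc lay far above every other library. Slit1 followed the same course at a lower level: 3.05 and 0.377 CPM at E11, 61.4 and 68.5 at E14, 35.8 and 28.7 at E16. Its 2 E14 libraries were above all others. Ephb2 was high on a plateau, with a mean of 329.9 CPM at E14 and 328.8 at E16, and declined to 28.22 at P28. Efnb2, a ligand of EphB receptors, had its peak at E14 with a mean of 244.1 CPM, overlapped E12, and reached 24.5 at P28.

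At E16 the peaks were those of Epha5, Epha6, Ephb1, Efna2 and Ntn4. Ephb1, the receptor known for steering the uncrossed ganglion cell axons at the optic chiasm, rose from 1.74 and 3.22 CPM at E11 to 17.8 and 15.9 at E14 and 63.3 and 53.2 at E16, and was 51.2 and 39.1 at P0. Both E16 libraries were above all others, if narrowly. Epha5 read 238 and 256 CPM at E16 and its lowest mean, at P21, was 57.2 CPM. Efna2 peaked at 20.2 CPM, overlapping P2, and its lowest mean was 2.18 CPM at P28. Ntn4, a netrin of basement membranes, varied least of these, from 8.02 CPM at P10 to 17.5 at E16. Epha6 had 2 maxima, with 11.0 and 13.8 CPM at E16 and a mean of 10.62 CPM at P14, where the higher library passed the lower of E16, and a low of 2.81 CPM at P2.

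Peaks at P0 and P2. Epha3, at 88.9 and 101 CPM, was the only gene of the 37 with its highest mean at P0. It overlapped E16 and had risen from 5.48 CPM at E11. The 11 genes with a P2 peak were the receptors Epha2, Epha4, Epha8, Ephb3 and Ephb6, the ligands Efna3 and Efnb1, the Slit receptors Robo1, Robo2 and Robo3, and Neo1, the netrin and repulsive guidance molecule receptor.

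Epha8 and Robo3 had the widest ranges of all 37. Epha8 (chromosome 4, 136929419 to 136956816, minus strand) read 0.197 and 0.823 CPM at E11, 15.0 and 14.5 at E14, 61.2 and 47.3 at E16, 139 and 125 at P0, 235 and 360 at P2, 115 and 150 at P4, 83.5 and 95.8 at P6 and 17.6 and 15.4 at P10. The peak mean of 297.7 ± 88.7 CPM (SD, n = 2) was 941-fold above the lowest, at E12. Robo3 (chromosome 9, 37415669 to 37433163, minus strand), a divergent Robo known for letting commissural axons approach the midline, began at 1.12 and 0.274 CPM on E11, reached 10.4 and 7.42 by E16, and stood at 39.1 and 27.5 at P0, 130 and 184 at P2, 78.1 and 89.7 at P4, 42.8 and 43.3 at P6 and 5.57 and 5.71 at P14. Its peak mean of 157.4 ± 38.1 CPM (SD, n = 2) was 226-fold above the lowest. In both genes the 2 P2 libraries lay above all others.

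Most of the estimated Robo3 counts were assigned to transcripts that are not annotated as coding. The 4 transcripts annotated as retained introns held 84.3% and 77.6% of the gene's estimated transcript counts at P2, and 73.0% and 70.1% at P4. Their share was not particular to P2, with 85.3% and 77.9% at E16 and 75.4% and 84.4% at P0. The remaining, protein-coding transcripts had 288 and 161 estimated counts at P0, 428 and 1050 at P2 and 706 and 887 at P4, without correction for library size. The P2 and P4 values of the coding transcripts overlap, so the P2 maximum rests on the retained-intron models. Robo3 and Robo4 lie tail to tail on chromosome 9, 1645 bases apart.

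The other P2 peaks were lower in range. Robo2 went from 23.5 CPM at E11 to 289 and 267 at P0 and 293 and 314 at P2. Robo1 reached 91.2 and 89.4 CPM at P2 and was lowest at P28, with 16.4. Epha2 read 38.0 and 42.4 CPM at P2 and 6.35 at its lowest, at P14. Ephb3 read 38.2 and 39.3 CPM at P2 and fell to 10.6 and 13.5 at P4. Ephb6, an Eph receptor without kinase activity, read 31.5 and 31.3 CPM at P2 and 8.94 and 17.0 at P4; its change over the 12 stages was not called after GC adjustment (edgeR adjusted p = 0.116). Efnb1 stood at 28.6 and 28.3 CPM and its lowest mean was 8.06 at P28. Efna3, at 9.87 and 8.65 CPM, overlapped P4 and P6. Epha4 overlapped P0 and P14 and Neo1 overlapped E11, E12, E14 and P0; their ranges were 34.5 to 72.6 CPM and 100.2 to 233.9 CPM.

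The P2 libraries also differed from their neighbours in a measure that is not specific to these genes. GC content was computed for the leading transcript of each gene. In the P2 libraries, the 20% of genes richest in GC stood 0.59 and 0.55 (log2) higher, against the 20% poorest in GC, than over all libraries. At P0 this difference was 0.01 and -0.20 and at P4 it was -0.47 and -0.22. The 37 genes are GC-rich: their median was 55.3%, against 49.4% for all genes tested, and 19 of the 37, including 7 of the 11 with a P2 peak, lay in that GC-rich group. A fit with offsets that remove this trend from each library, chosen after seeing the data, left 9 genes with a P2 peak, or 24.3%, against 6.03% of all genes tested. Of the 11, Epha2, Epha4, Epha8, Efnb1, Robo1, Robo2, Robo3 and Neo1 kept the peak at P2. Ephb3 and Ephb6 moved to E16 and Efna3 to P6, and Epha5 moved to P2 from E16. Peaks away from P2 also moved: Epha10 from P14 to P0, Ephb2 from E14 to E16 and Efna5 from E12 to E14. The E12 libraries were shifted away from GC-rich genes, by -0.51 and -0.31.

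The changes into and out of P2 depended on the same adjustment. These steps were chosen after the P2 peaks were seen. For a gene with its peak at P2, a higher mean than at P0 and P4 is given by definition. The p-values below do not allow for that choice. From P0 to P2, Epha8 and Robo3 were called higher, with log2 changes of 1.17 ± 0.22 (SE, edgeR adjusted p = 0.00168) and 2.24 ± 0.31 (edgeR adjusted p = 2.12e-04), against 3.02% of all genes tested, and none was called lower, against 0.961%. Robo3 kept its call after GC adjustment, at 1.86 ± 0.30, and Epha8 did not, at 0.62 ± 0.19 (edgeR adjusted p = 0.0588). Without the second P2 library the Epha8 change was 0.83, under 2-fold, and 1 gene was called. From P2 to P4, 8 of the 37 genes were called lower, against 7.28% of all genes tested, and none higher, against 3.97%. The 8 were Epha2, Epha8, Ephb3, Ephb4, Ephb6, Efna2, Efna4 and Efnb2, with log2 changes from -1.11 to -1.69. After GC adjustment 3 were called lower, against 4.45% of all genes tested. They were Efnb2 at -1.14 and Ephb3 at -1.04 among those 8, and Epha3, which had been -0.70. The median change of the 37 genes moved from -0.55 to -0.31. Robo4 was called higher with the adjustment, at 1.88. Without the first P4 library 4 genes were called lower. Summed progenitor markers fell over the same step, from 6835 and 6336 CPM to 2552 and 2547; their part in these changes was not tested.

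**Figure D2:**
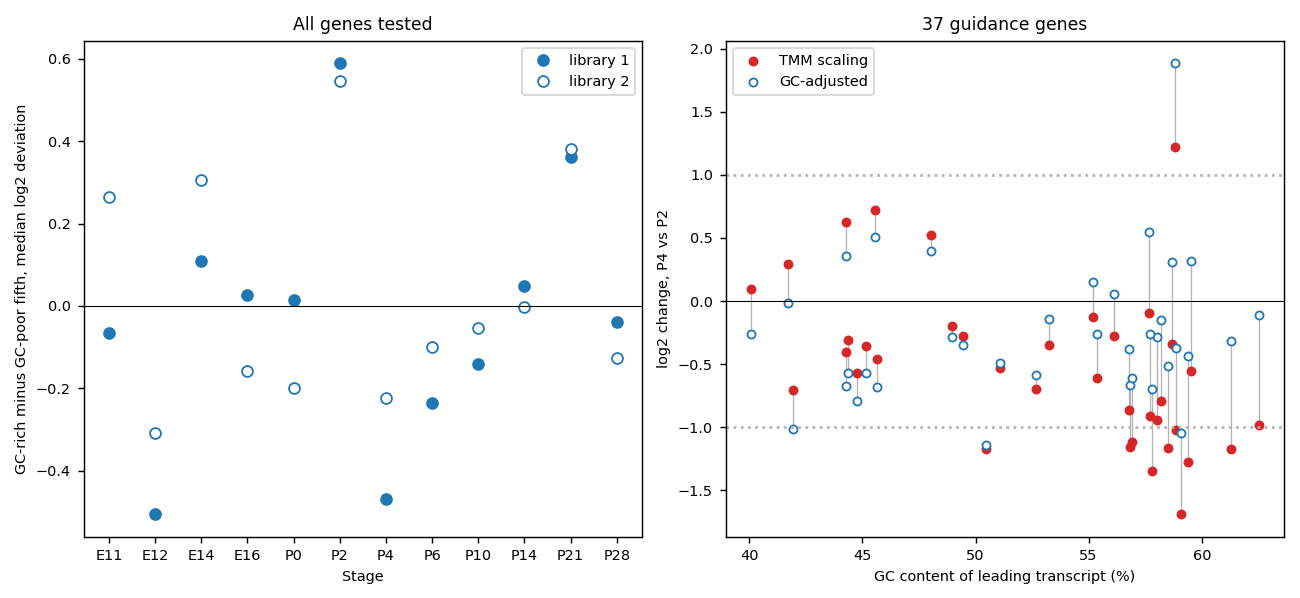
Left, median log2 deviation of the 20% of genes richest in GC minus that of the 20% poorest, per library by stage; the 2 P2 libraries are the highest at 0.59 and 0.55. Right, log2 change from P2 to P4 of the 37 genes against the GC content of their leading transcript, with TMM scaling (filled) and after GC adjustment (open); dotted lines mark 2-fold, and most GC-rich genes move toward 0.

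Promoter sequences from RefSeq (GRCm38.p6, 250 bases before to 50 after the start) are shown for Epha8 and Robo3, the pair called higher from P0 to P2, with E-boxes (CANNTG, bound by basic helix-loop-helix factors) in capitals.
Epha8, chr4:136956767-136957066, minus strand: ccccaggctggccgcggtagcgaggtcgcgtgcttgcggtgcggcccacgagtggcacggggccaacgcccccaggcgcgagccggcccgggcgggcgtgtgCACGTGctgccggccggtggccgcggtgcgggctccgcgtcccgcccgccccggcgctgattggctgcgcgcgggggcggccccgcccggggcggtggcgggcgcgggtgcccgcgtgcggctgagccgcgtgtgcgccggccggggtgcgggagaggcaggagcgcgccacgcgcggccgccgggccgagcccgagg
Robo3, chr9:37433126-37433425, minus strand: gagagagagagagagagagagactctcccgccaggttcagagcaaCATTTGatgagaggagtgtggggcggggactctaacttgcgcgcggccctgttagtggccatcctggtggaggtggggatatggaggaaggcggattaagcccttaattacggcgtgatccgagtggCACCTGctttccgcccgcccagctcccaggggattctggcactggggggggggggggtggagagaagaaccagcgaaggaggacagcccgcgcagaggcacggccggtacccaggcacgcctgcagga
The Epha8 window is 84.3% GC and holds 1 E-box. The Robo3 window is 63.3% GC and holds 2 E-boxes, and on either strand it also holds TAAT, the homeodomain core, and TAATCC, the form bound by CRX and OTX2, which contains TAAT. A promoter was matched for 32 of the 37 genes, with 35 entries, and none for Dcc, Efnb3, Ntn1, Slit1 and Unc5d. Of these 35 windows, 40.0% held an E-box, against 72.3% of 32851 promoters of the same length, 37.1% held TAAT against 58.0%, 5.71% held TAATCC against 7.06%, and 5.71% held TATAAA against 13.6%. Their median GC content was 65.3%, against 52.7%, and the ratio of observed to expected CpG was 0.69 against 0.38. These matches are descriptions of letters in a window and not sites.

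Peaks from P10 to P21. Epha7 was the only gene highest at P10, with 85.4 and 78.8 CPM, and had stood at 13.7 and 13.1 CPM at P2. At P14 the peaks were those of Slit2, Unc5c, Unc5d, Epha10 and Robo4. Unc5d rose with few pauses from 1.84 and 2.33 CPM at E11 through 28.8 and 24.7 at P6 and 47.1 and 45.3 at P10 to 76.0 and 70.4 at P14, and dropped to 31.5 and 35.1 at P21. Unc5c read 85.1 and 81.4 CPM at P14, overlapping P10, and 36.1 and 43.4 at P21. Epha10, which lacks kinase activity, read 39.2 and 35.1 CPM at P14, overlapped P0 and P21, and was lowest at E11 with 1.72. Robo4, a receptor of blood vessels, read 6.37 and 5.10 CPM at P14, overlapped E11 and P10, and its lowest mean was 0.538 CPM at P0. Markers of vessels did not follow a single course beside it. The 12 endothelium markers summed to 525 and 545 CPM at P14 but to 523 and 488 at P0. The 8 pericyte markers summed to 300 and 303 at P14 and 43.4 and 42.2 at P0. The endothelium sum did not reflect most of its genes. From P2 to P4 it fell from 635 and 659 CPM to 374 and 385. Over that step 7 of the 12 were called higher and none lower, with a median log2 change of 1.28. Pecam1 rose from 4.89 and 5.33 CPM at P0 to 26.1 and 27.7 at P14. Cdh5 rose from 1.52 and 1.29 to 21.18 and 18.85. Unlike Robo4, Pecam1 was highest at P28, at 35.3 and 34.2 CPM. The part of vessel cells in the Robo4 values was not tested. Unc5a was highest at P21, with 39.4 and 44.8 CPM, and all libraries before P14 were at or under 22.0 CPM.

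Slit2 (chromosome 5, 47983138 to 48307733, plus strand) made up most of the Slit signal. It read 139 and 110 CPM at E11, 194 and 194 at E12, 68.1 and 88.9 at E16, 82.5 and 65.0 at P2, 174 and 163 at P6, 246 and 191 at P10, 319 and 342 at P14, 125 and 125 at P21 and 216 and 180 at P28. The course thus has an early and a late maximum, and both P14 libraries lay above all others. Annotated Slit2 transcripts differ in 3 short coding exons, of 12, 24 and 27 bases, all multiples of 3. They are shown because transcripts that hold them changed in share with stage. The exon is in capitals and is flanked by 20 bases of the neighbouring exons as spliced (GENCODE M21, GRCm38, plus strand).
Slit2 exon of 12 bases, chr5:48191003-48191014: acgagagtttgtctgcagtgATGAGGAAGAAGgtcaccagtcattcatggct
Slit2 exon of 24 bases, chr5:48220967-48220990: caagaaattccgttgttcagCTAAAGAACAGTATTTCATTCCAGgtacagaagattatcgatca
Slit2 exon of 27 bases, chr5:48263641-48263667: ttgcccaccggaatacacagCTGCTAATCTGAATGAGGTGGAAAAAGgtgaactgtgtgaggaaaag

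The 27-base exon was the one whose use changed most. Its share of the transcripts spanning it, weighted by transcript length, was 0% in both libraries at E11, where 3872 and 2931 estimated counts were assigned to transcripts without it. The share was 17.8% and 4.38% at E12, 36.1% and 25.1% at E14, 48.8% and 45.8% at E16 and 64.0% and 59.4% at P2. From P4 to P28 it stayed between 39.4% and 54.0%. The 12-base exon, by contrast, was already in 55.3% and 59.5% of transcripts at E11 and ranged from 38.6% to 67.4% over all libraries. The 24-base exon ranged from 39.9% to 68.2%. The shares come from whole-transcript estimates: the 27-base exon is in a single annotated transcript (Slit2-006), and the main one without any of the 3, Slit2-001, also has a longer last exon, of 3734 against 1512 bases. The change in the exon therefore cannot be told apart from other differences between these transcripts. From P0 onward, transcripts with the 12-base exon had the same estimated counts as Slit2-006, such as 1179 and 1101 at P2. Those with the 24-base exon had nearly the same, at 1182 and 1101. After birth the shares of the 3 exons are thus not separate measurements.

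Unc5a and Epha7 also changed in form. The 168-base coding exon of Unc5a, present in Unc5a-001 and absent from Unc5a-002, is shown in capitals with 20 spliced bases on each side (GENCODE M21, GRCm38, plus strand).
Unc5a exon of 168 bases, chr13:54997193-54997360: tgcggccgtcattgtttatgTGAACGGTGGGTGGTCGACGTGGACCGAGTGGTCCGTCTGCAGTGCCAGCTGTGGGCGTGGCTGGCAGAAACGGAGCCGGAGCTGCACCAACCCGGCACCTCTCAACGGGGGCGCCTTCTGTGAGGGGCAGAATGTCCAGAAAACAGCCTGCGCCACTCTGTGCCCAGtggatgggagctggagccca
Transcripts with this exon were estimated at 0% in both libraries of E11, E12, E14, P0, P2 and P6, where 158 to 467 counts were assigned to the other transcripts. They held 5.64% and 8.53% at P14, 12.98% and 13.48% at P21 and 22.9% and 17.2% at P28, so the exon entered as the gene itself rose. Single libraries of E16, P4 and P10 gave 5.07%, 14.4% and 5.30% while the other library of the stage gave 0%, each from about 21 estimated counts. Epha7-002 is a short Epha7 transcript of 10 exons, against 17 in the full-length forms, and ends upstream of the exons they go on to use; truncated EphA7 receptors without the kinase are known. Its share, per length and against the full-length forms Epha7-001 and Epha7-004, was 3.15% and 4.53% at E11, 36.0% and 25.0% at P0, 39.6% and 39.0% at P4 and 32.3% and 34.3% at P28. These 3 genes were picked for their transcripts after the values were seen, and no test was made. Dcc-002, a shorter coding transcript of Dcc, held 23.0% and 34.6% of the gene's counts at E12, 17.6% and 18.4% at P0, 5.78% and 7.85% at P4, 9.64% and 18.6% at P6 and 0% at P21 and P28. Its E11 shares, 5.68% and 100%, rest on 204 and 21 estimated counts of the gene. Of the Epha2 counts, a non-coding fragment, Epha2-004, held 1.75% and 3.58% at P2 but 56.4% and 64.7% at P28, so the late Epha2 values overstate the coding transcript.

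**Figure D3:**
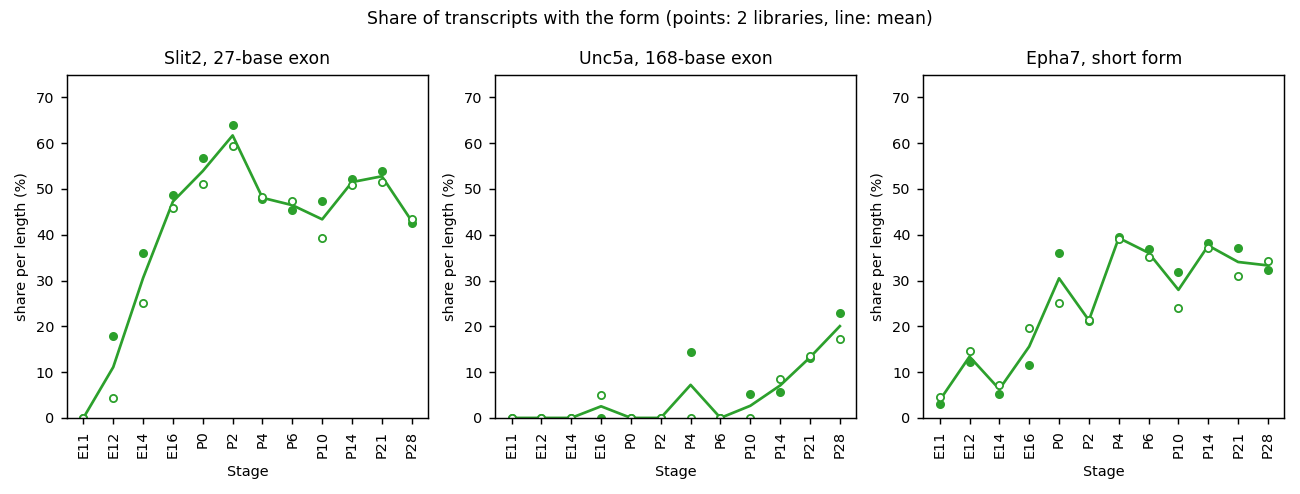
Share of the 27-base exon of Slit2, the 168-base exon of Unc5a and the short form of Epha7, per transcript length, by stage (points are the 2 libraries, filled for library 1, and the line is their mean). Slit2 goes from 0% at E11 to 64.0% and 59.4% at P2, Unc5a from 0% to 22.9% and 17.2% at P28.

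Change from E11 to E16. Of 24 receptors, 12 were called higher at E16 than at E11 and 3 lower, and of 13 ligands 3 were called higher and 4 lower. Of the 37 genes, 15 were called higher at E16, against 13.6% of all genes tested, and 7 lower, against 9.11%. Their median log2 change was 0.25, against 0.00 for all genes tested. Over the same window all 19 ganglion cell markers were called higher, and all 11 mesenchyme markers and 11 of 14 lens markers lower. The part of these cell types in the changes was not tested. Among EphA receptors, 5 of 9 were higher (Epha3, Epha5, Epha6, Epha8 and Epha10) and 1 lower (Epha1). The largest change of all 37 was that of Epha8, whose E16 libraries read 61.2 and 47.3 CPM and whose E11 libraries 0.197 and 0.823, a log2 change of 6.74 ± 0.34 (SE, edgeR adjusted p = 4.64e-11). Of the other EphA receptors called higher, Epha10 was at 4.05 and Epha3 at 3.94. Of 5 EphB receptors, Ephb1 rose by 4.55 ± 0.22 on the log2 scale (edgeR adjusted p = 2.73e-11) and Ephb2 by 1.14, and Ephb4 fell by 2.43.

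Ligands were divided. Efna3 read 6.83 and 6.40 CPM at E16 and 2.004 and 1.372 at E11, a log2 change of 1.97 ± 0.26 (SE, edgeR adjusted p = 8.09e-06), and Efna2, at 21.7 and 18.8 CPM at E16, rose by 1.31. Efna4 fell by 1.38 and Efnb3 by 1.04 ± 0.11 (SE, edgeR adjusted p = 6.05e-07), from 95.9 and 116 CPM to 53.5 and 49.9. Slit1 read 35.8 and 28.7 CPM against 3.05 and 0.377, a log2 change of 4.22 ± 0.48, and Slit3 fell by 3.49. Robo3 and Robo2 rose by 3.66 ± 0.44 and 3.49. Ntn1 fell by 2.94 ± 0.44 (SE, edgeR adjusted p = 3.23e-05), with 4.33 and 4.205 CPM at E16. The netrin receptors parted: Unc5b fell by 4.29 ± 0.24 (SE, edgeR adjusted p = 1.88e-10), whereas Dcc rose by 4.01 ± 0.47, Unc5c by 1.65 and Unc5d by 1.56.

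In this window, 3 calls depended on 1 library or on scaling. Epha6 read 8.01 and 3.74 CPM at E11 and had a log2 change of 1.08 ± 0.30, which was 0.63 without the second E11 library (edgeR adjusted p = 0.0997) and 0.91 without the second E16 library (edgeR adjusted p = 0.0564). Efna2, at 6.14 and 10.22 CPM at E11, came to 0.99 without the first E11 library. Efnb3 came to -0.88 with library-size scaling, which moved the median of all genes by 0.14, to -0.91 after GC adjustment, and to -0.89 and -0.98 without the second E11 and the second E16 library.

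Change from E16 to P6. Ephrins and EphB receptors made up 8 of the 13 genes that fell. Of the 37 genes, 13 were called lower at P6, against 11.7% of all genes tested, and 4 higher, against 13.2%, with a median log2 change of -0.61 against 0.01 for all genes tested. Progenitor markers went from 7283 and 7679 CPM in sum to 1285 and 1398, and their part in these changes was not tested. Of 5 EphB receptors, 4 fell: Ephb4 by 2.04 ± 0.17 (SE, edgeR adjusted p = 2.57e-08), from 17.5 and 17.3 CPM to 3.85 and 4.59, and Ephb1, Ephb2 and Ephb3 by 1.61, 1.55 and 1.37. Of 5 ephrin-A genes, 3 fell: Efna4 by 2.16 ± 0.27, from 8.66 and 9.09 CPM to 2.07 and 1.91, Efna5 by 1.80 and Efna2 by 1.45. Efnb2 fell by 1.49 ± 0.14 (SE, edgeR adjusted p = 1.54e-07), from 161 and 172 CPM to 59.0 and 59.1.

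Among EphA receptors, Epha6 fell by 1.78 ± 0.31, from 11.04 and 13.79 CPM to 3.37 and 3.85, and Epha3 by 1.36. Epha7 rose by 1.06 ± 0.13 (SE, edgeR adjusted p = 4.01e-06), from 18.1 and 20.6 CPM to 40.0 and 41.0, and was 0.97 without the first E16 library. Slit2 rose by 1.10 ± 0.15, from 68.1 and 88.9 CPM to 174 and 163, and was 0.92 without the same library and 0.80 with summed transcript estimates. Robo3 rose by 2.27 ± 0.33, from 10.4 and 7.42 CPM to 42.8 and 43.3, and Unc5d by 2.12 ± 0.16 (SE, edgeR adjusted p = 9.02e-09), from 6.50 and 5.81 CPM to 28.8 and 24.7. Without the first E16 library, 2 genes were called higher in place of 4. Ntn1 had a log2 change of -3.13 ± 0.52 (SE, edgeR adjusted p = 8.36e-05), from 4.33 and 4.205 CPM to 0.509 and 0.462. Dcc fell by 1.12 ± 0.40 (SE, edgeR adjusted p = 0.02995), from 58.4 and 63.6 CPM to 28.6 and 27.4. Its groups did not overlap, but it lost the call with DESeq2 (adjusted p = 0.0917) and without any single library of the 2 stages (edgeR adjusted p from 0.0704 to 0.122). Unc5b, at 7.28 and 7.61 CPM at P6, fell by 1.01 ± 0.23 and lay just under 2-fold, at -0.91 to -0.98, under 6 alternatives.

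Change from P6 to P28. Ephrins made up 5 of the 11 genes that fell, and 3 of these 5 (Efna2, Efna4 and Efnb2) had also been called lower from E16 to P6. Of the 37 genes, 11 were called lower at P28, against 10.5% of all genes tested, and 2 higher, against 14.23%, and the median log2 change was -0.55 against 0.04 for all genes tested. Over the same interval the 13 photoreceptor markers went from 7398 and 7171 CPM to 20213 and 22281, and progenitor markers from 1285 and 1398 to 648 and 601. Their part in these changes was not tested. Of 8 ephrins, 5 fell: Efna4 by 3.08 ± 0.36 (SE, edgeR adjusted p = 1.93e-06), to 0.258 and 0.203 CPM, Efna2 by 1.77, Efna1 by 1.13, Efnb2 by 1.27 and Efnb3 by 1.66 ± 0.11 (SE, edgeR adjusted p = 3.87e-09), from 49.0 and 53.8 CPM to 16.07 and 16.50. Robo3 fell by 3.97 ± 0.36 (SE, edgeR adjusted p = 1.19e-07), from 42.8 and 43.3 CPM to 2.21 and 3.28, and Robo1 by 1.70. Ephb2 fell by 1.99 ± 0.13 (SE, edgeR adjusted p = 1.54e-09), from 113 and 112 CPM to 29.6 and 26.9. Epha8, Epha3 and Epha5 fell by 1.44, 1.23 and 1.20. No Slit gene or netrin was called, and their log2 changes ran from -0.51 for Slit3 to 0.68 for Ntn1.

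The genes called higher were Unc5a, from 8.26 and 11.6 CPM to 35.4 and 26.4, a log2 change of 1.64 ± 0.23 (SE, edgeR adjusted p = 1.97e-05), and Epha1, from 0.159 and 0.216 CPM to 0.660 and 0.551. The Epha1 change of 1.67 ± 0.55 (SE, edgeR adjusted p = 0.0186) rests on few counts and lost its call without either P6 library (edgeR adjusted p = 0.119 and 0.0566) or the first P28 library (edgeR adjusted p = 0.0813), which leaves 1 gene called higher. Efna1, from 3.27 and 3.91 CPM to 1.52 and 1.77, lost its call without any single library of the 2 stages (edgeR adjusted p from 0.0516 to 0.144).

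**Figure D4:**
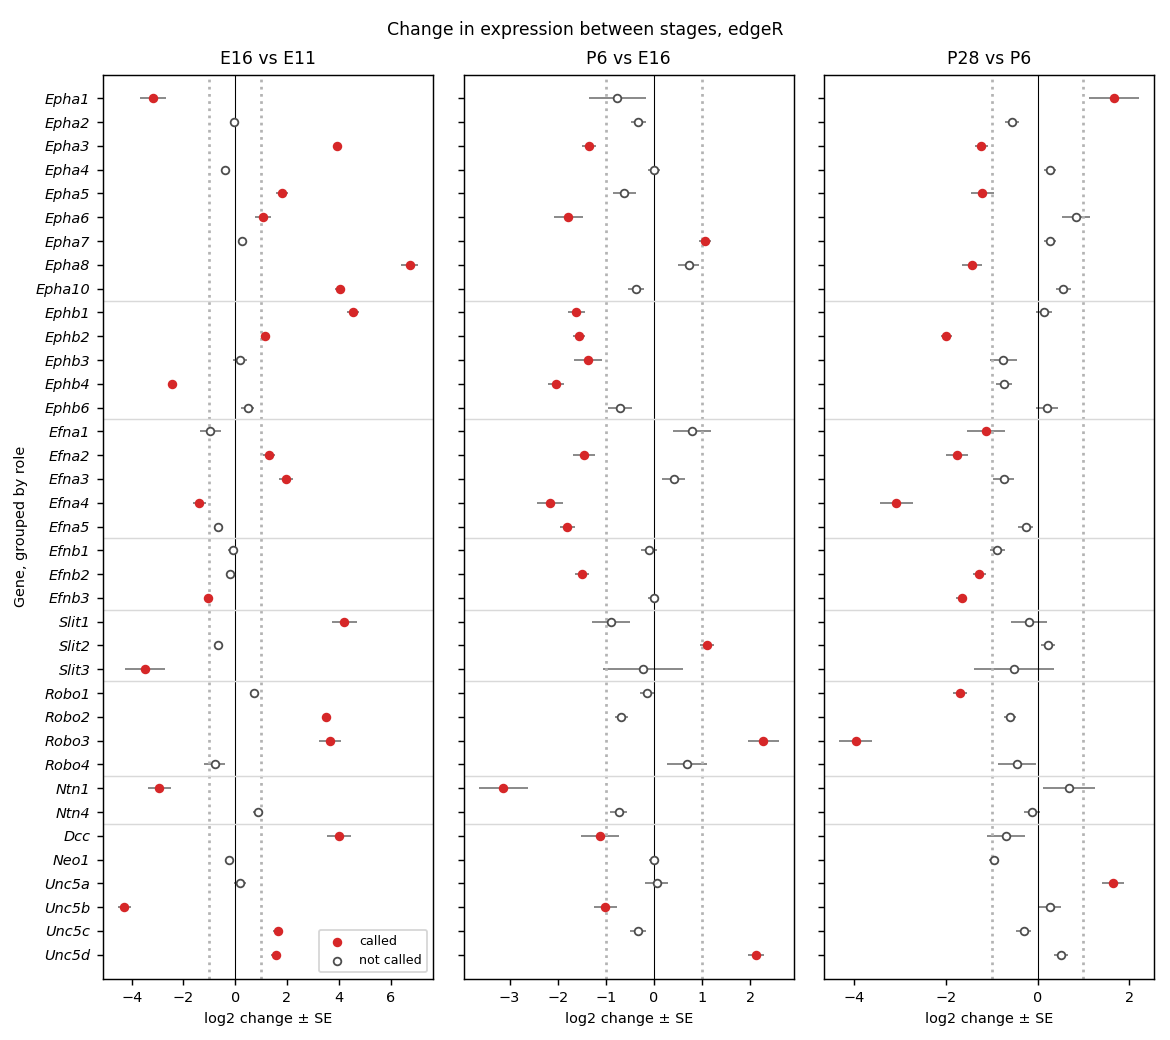
Log2 change ± SE of each of the 37 genes in 3 windows (edgeR), grouped by role; filled points are called (adjusted p below 0.05 and at least 2-fold), open points are not, and dotted lines mark 2-fold. From E11 to E16 15 points are called above 0, and in the 2 later windows 13 and 11 are called below it.

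The late steps around P14 were examined because 5 genes peaked there, a choice made after seeing the data. From P10 to P14, 5 genes were called higher, against 3.45% of all genes tested, and none lower, against 1.08%. They were Epha6, from 3.82 and 1.91 CPM to a mean of 10.62 ± 0.683 (SD, n = 2), with a log2 change of 1.89 ± 0.31 (edgeR adjusted p = 4.87e-04), Ntn1 at 1.74, Ephb1 at 1.10, Unc5b at 1.05 and Epha8 at 1.04. Of all genes called in this step, 76.2% were higher, and 62.9% with library-size scaling, under which 3 of the 5 kept the call; without the second P10 or the first P14 library the count was also 3. The Ntn1 change, from 0.449 and 0.395 CPM to 1.29 and 1.55, lost its call without any single library of the 2 stages (edgeR adjusted p from 0.0866 to 0.205). After GC adjustment Epha8 came to 0.69 and Unc5b to 0.97, both under 2-fold. Summed markers of several cell types were higher after the same step: 13 Muller glia markers went from 2684 and 2594 CPM to 4271 and 4604, 12 amacrine markers from 1079 and 1008 to 1724 and 1759, 19 ganglion cell markers from 1475 and 1555 to 2147 and 2212, and pericyte markers from 222 and 216 to 300 and 303. Pigment epithelium markers went from 193 and 247 to 169 and 145. Their part in the 5 calls was not tested. From P14 to P21, 10 genes were called lower, against 5.07% of all genes tested, and 1 higher, against 4.31%. The lower ones were Epha3, Epha5, Epha6, Efna2, Efna4, Slit2, Robo1, Robo3, Unc5c and Unc5d, with log2 changes from -1.03 to -1.40, the largest being Slit2 at -1.40 ± 0.15 (edgeR adjusted p = 5.61e-06). Robo3 lost its call without any single library of the 2 stages (edgeR adjusted p from 0.0745 to 0.126), Efna4 without either P14 library or the second P21 library (edgeR adjusted p from 0.0631 to 0.394), and Epha6 without the second P14 library or either P21 library (edgeR adjusted p from 0.0586 to 0.107). In this step 13 photoreceptor markers went in sum from 15471 and 16173 CPM to 24554 and 23532, while pericyte markers went from 300 and 303 to 127 and 125 and endothelium markers from 525 and 545 to 283 and 306. Their part in these changes was not tested. Unc5a was higher, at 1.12 ± 0.23, but came to 0.92 after GC adjustment and 0.71 with summed transcript estimates. The P21 libraries, like those of P2, were shifted toward GC-rich genes, by 0.36 and 0.38. After the adjustment 7 genes were called lower, against 4.95% of all genes tested. Epha3, Unc5c and Unc5d then came to -0.999, -0.93 and -0.998, under 2-fold. Without the first P21 library Unc5c was at -0.94.

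To compare genes with each other, levels were expressed per transcript length, as TPM, a share of all transcripts of the library. TPM was not adjusted for GC content and includes transcripts annotated as retained introns. The 9 EphA receptors summed to 53.2 ± 13.3 TPM (SD, n = 2) at E11, 301.5 ± 34.9 at P2 and 109.6 ± 3.96 at P28. Epha5 led this group at every stage except P2, when Epha8 supplied 40.9%, and P21, when Epha4 led. Epha8 stood at 123.2 ± 37.2 TPM (SD, n = 2) at P2. On the CPM scale its P2 mean was 297.7 before and 213 after GC adjustment. The 5 EphB receptors summed to 199.6 ± 18.5 TPM at E16 and 46.6 ± 0.681 at P28. Ephb2 led them until P14, with 62.7% at E16, and Ephb6 at P21 and P28. Ephrin-A genes fell from 84.0 ± 11.4 TPM at E14 to 17.1 ± 1.96 at P28, and ephrin-B genes from 169.8 ± 21.6 at E12 to 32.9 ± 2.08. Efna5 was the leading ephrin-A except at P2, when it was Efna2, and Efnb2 the leading ephrin-B except at P6 and P10, when it was Efnb3.

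Slits and Robos were out of step. Robo genes rose from 16.7 ± 0.929 TPM at E11 to 247.4 ± 26.9 at P2 and were back to 51.6 ± 8.54 at P28, led by Robo2 at all stages. Robo3 supplied 89.1 ± 22.2 TPM at P2, where most of its counts were in retained-intron transcripts. Slit genes were at 65.8 ± 9.21 TPM at P2 and 234.0 ± 7.46 at P14, and Slit2 was 93.8% of the latter. The netrins stayed low, between 5.26 and 14.4 TPM in stage means, with Ntn1 supplying 66.9% of the E11 mean and Ntn4 96.7% at P0. Their E11 sum was 7.50 and 17.3 TPM in the 2 libraries, which differed widely in Ntn1. Netrin receptors varied least as a group, from 83.7 to 144.5 TPM, but changed hands: Unc5b supplied 56.7% at E11, Unc5a led at P21 with 35.4%, and Neo1 led at all other stages. By the mean of the 2 libraries, the most abundant gene of all 37 per length was Unc5b at E11 (73.8 TPM) and Slit2 at E12. It was Ephb2 at E14 and E16 (123.2 and 125.2 TPM), Robo2 from P0 to P4 (133.0 TPM at P2) and Slit2 from P6 to P28 (219.5 TPM at P14). In the first E11 library, Unc5b, at 62.3 TPM, was below Efnb2 and Slit2, at 75.7 and 72.9. In the second P2 library, Robo2, at 136.5 TPM, was below Epha8, at 149.5.

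**Figure D5:**
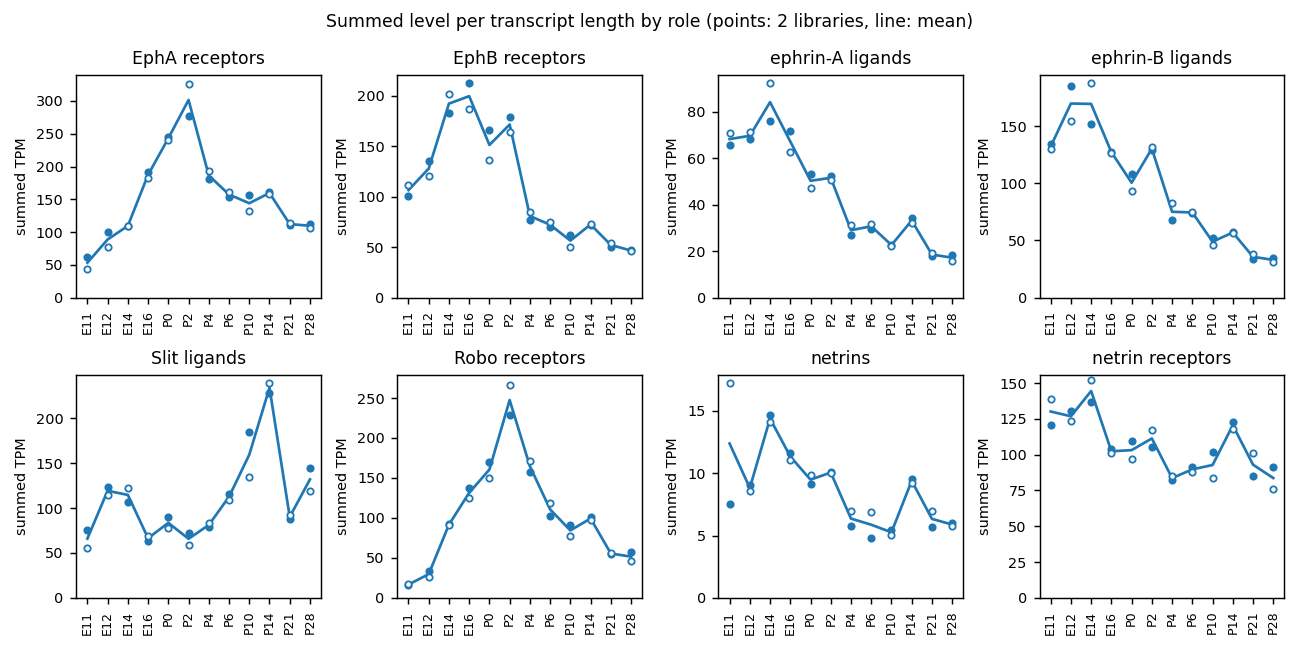
Level per transcript length, in TPM summed over the genes of each role, by stage; points are the 2 libraries (filled for library 1) and the line is their mean. EphA and Robo receptors peak at P2, at 301.5 and 247.4 TPM, ephrins decline from E12 or E14, and Slit genes peak at P14 at 234.0 TPM. Levels are not adjusted for GC content and include retained-intron transcripts, which hold most Robo3 counts at P2.

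Genes that act with these families were taken from lists. Among all genes tested, the shares called higher and lower were 13.6% and 9.11% from E11 to E16, 13.2% and 11.7% from E16 to P6, and 14.23% and 10.5% from P6 to P28. Of 24 partners of Eph signalling, 4 were called higher and 2 lower from E11 to E16, 1 and 9 from E16 to P6, and 1 and 4 from P6 to P28, with medians of 0.07, -0.77 and -0.49. Ptpro, a phosphatase that acts on Eph receptors, rose by 2.35 from E11 to E16, from 5.81 and 6.41 CPM to 33.3 and 28.9, and fell by 1.77 from P6 to P28. Grb7, an adaptor, fell by 2.83 from E11 to E16, Grb10, another adaptor, and Vav2, a guanine nucleotide exchange factor, by 2.57 and 1.77 from E16 to P6, and Nck2, an adaptor, by 1.25 from P6 to P28. Of 25 partners of Slit, Robo and netrin signalling, 2, 1 and 1 were called higher and 1, 3 and 0 lower in the 3 windows. Srgap3, a Rac regulator that binds Robo, rose by 2.72 and Flrt3, a membrane protein that binds Robo1 and Unc5, fell by 3.05 from E11 to E16. Dock1 and Srgap1 fell by 1.92 and 1.63 from E16 to P6, and Ablim1, an actin-binding protein, rose by 1.99 from P6 to P28.

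Of 10 tested genes among 12 other netrin and neogenin ligands and receptors, 7 were called higher and 1 lower from E11 to E16, 2 and 3 from E16 to P6 and 3 and 2 from P6 to P28. Dscam and Dscaml1, adhesion receptors of retinal neurons, rose by 5.70 and 6.27 in the first window, and Dscaml1 by a further 2.53 in the second. Draxin, a repellent that binds netrin receptors, fell by 2.84 from E16 to P6 and by 3.75 from P6 to P28, and Ntng1 rose by 2.40. Of 16 genes listed for patterning of the retinal axes, 1 was higher and 7 lower from E11 to E16. None was higher and 12 lower from E16 to P6, and 2 and 6 from P6 to P28. Their median change from E16 to P6 was -2.10. Aldh1a3 fell by 5.19 in that window and Foxd1 had a log2 change of -3.13. Zic2, the factor of ipsilateral ganglion cells that is known to activate Ephb1, fell by 2.86 and Cyp26a1 by 2.50 from P6 to P28. Aldh1a1 fell by 3.56 from E11 to E16. Isl2, the 1 gene of this list called higher in that window, rose by 6.88, from 0.131 and 0.069 CPM to 12.9 and 11.8. It is also among the ganglion cell markers.

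Some members are neighbours in the genome. Efna1, Efna3 and Efna4 form a cluster on chromosome 3 with gaps of 32756 and 10424 bases and peaked at E11, P2 and E11, although the E11 libraries of Efna1 overlapped those of P2, its second highest stage. Ephb2 and Epha8 lie 93430 bases apart on chromosome 4 and peaked at E14 and P2, and Robo4 and Robo3 at P14 and P2.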

How the data were processed

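The authors deposited gene and transcript tables of estimated counts. The submitters' processing notes name kallisto 0.42.4, edgeR 3.13.9 and GRCm38.p5, with no role for each, and the step from transcript to gene estimates was not described in the sources used here. Transcript lengths were taken from the deposited transcript table. Gene counts were rounded to whole numbers and fitted in R 4.3.3 with edgeR 4.0.16 (TMM scaling, filterByExpr with a minimum count of 10, 1 coefficient per stage over all 24 libraries, 12 residual degrees of freedom). A gene was called at a Benjamini-Hochberg adjusted p below 0.05 over the 21858 genes tested and a fold of at least 2. DESeq2 1.42.0 was an alternative. SE is the log2 change divided by the root of the F statistic. The method was tested on simulated data.

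TPM was computed from transcript estimates and lengths. Exons came from GENCODE M21, whose transcript lengths equal those in the deposited table for the transcripts named. GC content came from the same source for 98.9% of the genes tested, and GC-adjusted offsets used 20 bins. Every gene of the 37 is named; both libraries are given for the called genes with the largest change in each role and window and for those that lost a call. From each list of partner genes, the 2 called genes with the largest change and at least 5 CPM were named. Of the 14 photoreceptor markers, 1 is not reported here, and sums are over the other 13. The members and lists were chosen with earlier results of these data known. Samples were grouped by the age in their labels. The 2 libraries of a stage differed by more than counting error (chi-square per gene from 9.17 to 59.4). Other count tables and the authors' comparisons were not used.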

Additional observations from a re-analysis of the deposited data

How the results depend on the processing

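Of 8288 results for single genes under alternatives, 8118 kept their side of the threshold, 70 lost a call and 100 gained one. None of the called changes changed sign. Among the results called in neither fit, 76 had the other sign. Of 52 called changes in the windows E11 to E16, E16 to P6 and P6 to P28, 43 kept the call under every alternative run. Replicate numbers did not pair the libraries: the correlation of same-numbered deviations over 66 pairs of stages ran from -0.06 to 0.13, with 2 over 0.1. With a replicate block, 1 gene (Robo4) was called higher from P2 to P4 in place of 0, as it was with RLE size factors, DESeq2, no filter, GC-adjusted offsets and summed transcript estimates. GC-adjusted offsets gave 1 gene higher from P0 to P2, against 1.84% of all genes tested, and 3 lower from P2 to P4, against 4.45%. They gave 0 higher from P14 to P21, against 4.02%, and summed transcript estimates also gave 0 there. Library-size scaling gave 3 genes higher from P10 to P14. Over all genes tested, GC adjustment lowered the calls higher at P2 than at P0 from 661 to 403 and lower at P4 than at P2 from 1591 to 972.

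Without the 2-fold threshold the counts were 5 higher and 18 lower from P6 to P28. They were 6 higher and 2 lower from P0 to P2 and 2 higher and 18 lower from P2 to P4. Then 13 were higher from P10 to P14 and 19 lower from P14 to P21. Shares of all genes tested without the threshold, or with 1 library left out, are not given here. These counts therefore do not set the 37 genes apart. Leaving out 1 library at a time gave 14 to 15 higher and 6 to 9 lower from E11 to E16, 2 to 4 and 11 to 13 from E16 to P6, 1 to 2 and 10 to 13 from P6 to P28, 1 to 3 and 0 from P0 to P2, 0 to 1 and 4 to 10 from P2 to P4, 3 to 5 and 0 from P10 to P14 and 1 and 7 to 10 from P14 to P21; the lone library of a stage was then assumed to vary like the other stages. All 37 genes were called over the 12 stages in each of these, and all but Ephb6 after GC adjustment and all but Epha4 and Ephb6, which came under 2-fold, with summed transcript estimates. The peak stage was the same for 35 genes with RLE factors, 33 with library size alone, 33 with summed transcripts, 30 after GC adjustment, 30 from the first and 30 from the second library of each stage alone; with the P2 libraries left out, the 11 genes that had peaked there peaked at P0 (3), P4 (3), E16 (2), E12 (1), P6 (1) and P14 (1). The steps into and out of P2 and P14, GC adjustment, summed transcript estimates and peaks without P2 were chosen after seeing the data. With 2 libraries per stage, genes of low counts such as Epha1, Slit3 and Efna1 carry the widest errors.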
